A study of Mus musculus with 4 samples.

Results

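The 9 genes of the signaling lymphocytic activation molecule (SLAM) family, Slamf1, Cd48, Cd244a, Ly9, Cd84, Slamf6, Slamf7, Slamf8 and Slamf9, were followed in sorted mouse hematopoietic stem cells (HSCs) with and without Gfi1b. They were chosen by name, and each symbol matched 1 Ensembl gene among the 42367 genes listed in the count tables. SLAM proteins are cell surface receptors of the immunoglobulin superfamily. Most of them bind another copy of themselves on a neighbouring cell, while CD48 is the ligand of CD244, and the cytoplasmic tails of several members carry tyrosine motifs that recruit the small adaptors SAP and EAT-2. In the bone marrow the family is best known for a surface code: HSCs carry CD150 (encoded by Slamf1) and lack CD48 and CD244, which appear on more mature progenitors.

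RNA was sequenced from HSCs sorted as Lin- cKit+ Sca1+ CD48- CD150+ and from CD41low/CD9low HSCs, and 1 library was made per genotype and population, 4 in all. The mice were of the C57Bl6 strain. The KO animals carried floxed Gfi1b alleles on both chromosomes and a tamoxifen-inducible Cre expressed from the Rosa26 locus, which acts in all tissues and not in HSCs alone. In the methods the controls, called WT, had the same Cre and a floxed allele on only 1 of the chromosomes, whereas the deposited design describes floxed mice with or without Cre. All animals received tamoxifen. The sample titles name Gfi1 and the genotype labels Gfi1b, and the latter is used here. Marrow of several animals was pooled before sorting, with fewer animals in the KO pool, so that no library belongs to a single mouse. CD48 and CD150 were therefore sorting criteria in the HSC libraries. The label of the CD41low/CD9low HSCs names neither, but the study's text places both populations within the CD48- CD150+ gate and calls the first one CD41high/CD9high or CD41+/CD9+. The ages of the animals are not given in the sources used here.

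The total count on genes was between 12732079 and 50781007 per library, and 3 counts, taken as the smallest number a library can show, correspond to 0.0591 to 0.236 CPM (counts per 1000000 counts on genes). All 8 HSC marker genes that were examined, such as Procr, Mecom and Hlf, were counted in every library, with a summed level of 996 CPM in WT HSCs, 982 CPM in KO HSCs, 1270 CPM in WT and 1260 CPM in KO CD41low/CD9low HSCs. Single genes differed more than these sums. In WT and KO HSCs Procr had 45.7 and 99.0 CPM, Mecom 267 and 201 CPM and Hlf 280 and 185 CPM. In WT and KO CD41low/CD9low HSCs Procr had 165 and 251 CPM, Mecom 294 and 261 CPM and Hlf 440 and 329 CPM. The T cell gene Cd3e had 0 counts in 3 libraries and 1 count in KO HSCs. Cd8a had 5 counts in KO HSCs and 0 elsewhere. Genes of other targets of the lineage antibodies were present. In WT HSCs, KO HSCs, WT and KO CD41low/CD9low HSCs, Itgam had 15.4, 9.09, 33.9 and 20.2 CPM. In the same order Klrb1c had 12.5, 6.33, 6.21 and 9.15 CPM and Cd4 0.945, 0.504, 7.46 and 2.09 CPM. The library of WT CD41low/CD9low HSCs stood apart by its neutrophil genes, whose 8 examined members summed to 1080 CPM against 277 to 492 CPM in the remaining libraries. The count of Gfi1b itself was higher in KO, 6.66 times in HSCs and 10.6 times in CD41low/CD9low HSCs. It covers the whole gene with the exons that are not deleted, and so it does not check the genotype labels.

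The family lies in a cluster on chromosome 1 (GRCm38), within 1030 kb, from Cd244a (171559193 to 171609746, forward strand) to Slamf8 (172581758 to 172590568, reverse strand). Ly9 (171588624 to 171607410, reverse strand) lies inside the annotated span of Cd244a on the opposite strand, but no exonic base is shared between them. Slamf7 (171632403 to 171653035, reverse strand), Cd48 (171682009 to 171705258, forward), Slamf1 (171767127 to 171801184, forward), Cd84 (171839697 to 171890718, forward), Slamf6 (171917515 to 171953170, forward) and Slamf9 (172475358 to 172478575, forward) follow. Of the 9 genes only Slamf7 shares exonic bases with another annotated gene, 423 of its 4577, so that overlap could affect the count of no other member in this annotation. Promoter sequence from RefSeq (GRCm38.p6) was matched for 8 of the 9 genes. The 250 bases before the start of transcription are shown for the pair of genes that define the sort gate and for the receptor of CD48, because their levels carry the comparisons below. Capitals mark AATC, the core of the sequence that Gfi1b recognizes, or GATT, its reverse complement.

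Slamf1, chr1:171766882-171767131, forward strand: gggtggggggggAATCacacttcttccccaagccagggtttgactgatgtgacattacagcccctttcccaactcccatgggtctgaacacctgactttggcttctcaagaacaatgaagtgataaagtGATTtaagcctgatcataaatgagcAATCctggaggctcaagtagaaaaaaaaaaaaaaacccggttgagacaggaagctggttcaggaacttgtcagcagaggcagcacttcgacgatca
Cd48, chr1:171681742-171681991, forward strand: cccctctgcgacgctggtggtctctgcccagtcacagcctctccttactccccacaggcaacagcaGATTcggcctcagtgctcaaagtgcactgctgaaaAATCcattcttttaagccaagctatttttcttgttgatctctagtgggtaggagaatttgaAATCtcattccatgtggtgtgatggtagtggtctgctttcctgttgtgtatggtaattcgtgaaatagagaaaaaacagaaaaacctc
Cd244a, chr1:171558943-171559192, forward strand: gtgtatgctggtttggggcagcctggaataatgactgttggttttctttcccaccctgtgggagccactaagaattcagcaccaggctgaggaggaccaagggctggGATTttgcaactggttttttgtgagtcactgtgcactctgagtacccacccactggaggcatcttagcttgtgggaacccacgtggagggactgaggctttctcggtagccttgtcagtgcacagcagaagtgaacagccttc

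The motif occurred 3 times before Slamf1, 3 times before Cd48 and 1 time before Cd244a, counted on both strands. It was present in all 8 promoters matched, and in 69.0% of all 32851 RefSeq promoters of the same length. The longer form AAATC, which contains the shorter one, was found in 6 of the 8 promoters and in 32.7% of all. A match of this kind is a description of the letters and not a binding site.

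Slamf1 encodes CD150, the protein for which HSCs were positively sorted. It was counted at 82.7 CPM in WT HSCs, 106 CPM in KO HSCs, 30.9 CPM in WT CD41low/CD9low HSCs and 61.1 CPM in KO CD41low/CD9low HSCs. Both HSC libraries were thus above both CD41low/CD9low libraries, and within each population the KO library was the higher one. The KO/WT ratio of normalized counts (counts divided by size factors of the pair of libraries) was 1.30 in HSCs, with an exact 95% interval of 1.25 to 1.36. It was 1.98 (1.76 to 2.22) in CD41low/CD9low HSCs. These intervals cover counting error only, and since each group is 1 library no KO/WT ratio within a population has a replicate check. The ratio in CD41low/CD9low HSCs was 1.52 times that in HSCs (exact interval 1.34 to 1.72), a difference beyond counting error. Slamf1 passed the ratio of 1.5, the cutoff taken here for a higher level, in CD41low/CD9low HSCs and not in HSCs.

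Cd48 encodes the lipid-anchored ligand of CD244 and CD2, and its absence from the cell surface was required of sorted HSCs. Its transcript was nevertheless present, with 305 counts in WT HSCs, 323 in KO HSCs, 16 in WT and 42 in KO CD41low/CD9low HSCs. Its levels were thus 6.01 and 7.75 CPM in WT and KO HSCs and 1.26 and 2.20 CPM in WT and KO CD41low/CD9low HSCs. Cd48 followed the order of Slamf1, with both HSC libraries above both CD41low/CD9low libraries and the KO library above the WT library in each population. In HSCs its KO/WT ratio was 1.31 (1.11 to 1.53). In CD41low/CD9low HSCs it was 1.75 (0.964 to 3.33), which was past the cutoff, but the interval includes 1 at 16 and 42 counts. The ratio of the ratios was 1.34 (0.718 to 2.60), and a difference between the populations was not detectable at this depth.

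The gate can be set against the transcripts within a library, where normalization plays no part. For every 100 reads of Slamf1 there were 7.26 reads of Cd48 in WT HSCs (exact 95% interval 6.44 to 8.16) and 7.29 in KO HSCs (6.49 to 8.17). In CD41low/CD9low HSCs there were 4.06 (2.30 to 6.68) in the WT and 3.59 (2.58 to 4.89) in the KO library. The proportion of Cd48 to Slamf1 reads differed between the genotypes of a population by less than counting error. Cd48 has the shortest exons of the family, 1189 bases in all against 6156 for Slamf1. Per kilobase of exon, Slamf1 was therefore 2.66 times Cd48 in WT HSCs (2.37 to 3) and 4.76 times in WT CD41low/CD9low HSCs (2.89 to 8.40). With the longest coding transcript as the length, a choice made after the data were seen, it was 6.07 and 10.8 times. The transcript of the protein gated out was thus below that of the protein gated in, but in HSCs it was far above 3 counts. In bulk RNA fewer cells with a transcript and less transcript per cell cannot be told apart.

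**Figure D1:**
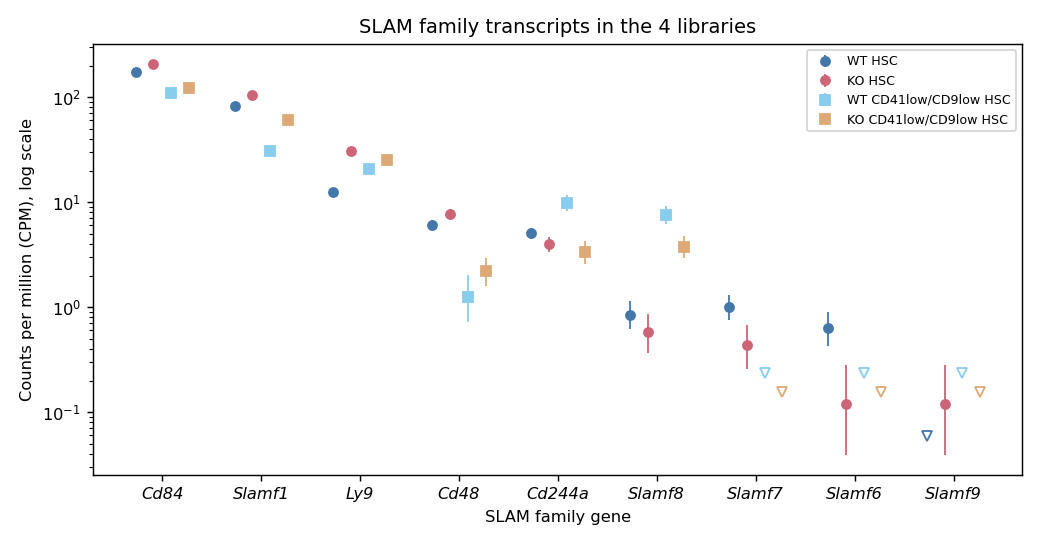
Level of the 9 SLAM family genes in the 4 libraries, in CPM on a log axis. Points are single libraries with exact 95% counting intervals, and open triangles mark the CPM of 3 counts in a library where the gene had 0 counts. Slamf1 and Cd48 are highest in both HSC libraries, while Slamf8 is higher in both CD41low/CD9low libraries.

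Cd244a encodes CD244, the receptor of CD48 on natural killer cells and some progenitors, and belongs to the HSC surface code as well. It was not among the proteins stained for the sort. Its level was 5.04 CPM in WT HSCs, 3.96 CPM in KO HSCs, 9.82 CPM in WT CD41low/CD9low HSCs and 3.35 CPM in KO CD41low/CD9low HSCs. The WT CD41low/CD9low library was the highest and the KO library of the same population the lowest. The KO/WT ratio was 0.796 (0.650 to 0.971) in HSCs and 0.341 in CD41low/CD9low HSCs (0.248 to 0.465), where it was below 0.6, the cutoff taken here for a lower level. The second ratio was 0.429 times the first (0.294 to 0.623). Ligand and receptor thus stood on opposite sides of 1 in HSCs, with Cd48 higher and Cd244a lower in the KO library.

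Markers of some other cell types moved in part with Cd244a. The summed level of 8 macrophage genes, all of them counted in every library, was 28.5 CPM in WT HSCs, 22.6 CPM in KO HSCs, 47.8 CPM in WT and 18.7 CPM in KO CD41low/CD9low HSCs, which is the order of Cd244a across the libraries. The sum of the 8 neutrophil genes was also highest in WT and lowest in KO CD41low/CD9low HSCs, but no single gene of the list was both. In WT HSCs, KO HSCs, WT and KO CD41low/CD9low HSCs, Camp had 8.43, 9.40, 70.6 and 15.1 CPM. In the same order Mpo had 174, 258, 121 and 20.5 CPM. Of these 8 neutrophil genes, all 8 were below 0.6 in the KO/WT ratio of CD41low/CD9low HSCs. So were 6 of the 8 macrophage genes and 4 of 7 multipotent progenitor genes, where 12% of all 14844 genes past the filter were. The receptor tyrosine kinase gene Flt3, a progenitor marker, went from 141 to 56.1 CPM there, with 20.8 and 22.6 CPM in WT and KO HSCs. Its order over the libraries was thus not that of Cd244a. The progenitor genes Cd34, Cd27 and Satb1 had KO/WT ratios of 0.767, 1.05 and 0.863 in CD41low/CD9low HSCs. The 7 matched erythroid genes, which summed to 41.6, 31.8, 71.9 and 17.9 CPM in WT HSCs, KO HSCs, WT and KO CD41low/CD9low HSCs, also had the order of Cd244a, and 6 of them were below 0.6 there. The T cell genes Cd3d, Cd3e, Cd3g and Trbc2 were at 0 in both CD41low/CD9low libraries. Of the NK cell genes, Nkg7 went the other way from Cd244a there, with 10.1 CPM in WT and 30.8 CPM in KO. So did Klrb1c with 6.21 and 9.15 CPM, but in HSCs its KO/WT ratio was 0.512. Gzma fell with Cd244a in CD41low/CD9low HSCs, from 12 counts in WT to 0 in KO. Ncr1 had 0 counts in WT and 1 in KO of that population. The lineage antibodies of the sort, which included CD3, Gr1, CD11b and NK1.1, are meant to remove mature cells of these kinds. The part of such cells in the Cd244a ratio was not tested.

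Cd84 and Ly9 encode receptors that bind themselves. Cd84, which is also carried by platelets and mast cells, was the most abundant member of the family, at 172 CPM in WT HSCs, 205 CPM in KO HSCs, 110 CPM in WT and 121 CPM in KO CD41low/CD9low HSCs. Its KO/WT ratios of 1.2 (1.17 to 1.24) and 1.10 (1.03 to 1.18) were both short of the cutoff and close to each other. The ratio of the ratios was 0.918 (0.853 to 0.988). Ly9, known as CD229 on lymphocytes, showed another pattern, with 12.4 CPM in WT HSCs, 30.8 CPM in KO HSCs, 20.9 CPM in WT and 25 CPM in KO CD41low/CD9low HSCs. The WT HSC library was the lowest and the KO HSC library the highest, and the CD41low/CD9low libraries lay between them. The KO/WT ratio of Ly9 was 2.52 (2.29 to 2.78) in HSCs, the highest of any member that passed the filter, and 1.2 in CD41low/CD9low HSCs (1.03 to 1.40). The second was 0.476 times the first (0.397 to 0.571). Slamf1 and Ly9 therefore differed between the populations in opposite directions, since the KO/WT ratio of Slamf1 was the larger one in CD41low/CD9low HSCs and that of Ly9 the larger one in HSCs.

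Slamf6 and Slamf7 are receptors of lymphocytes, and Slamf7 is also a surface protein of plasma cells. Slamf6 had 32 counts in WT HSCs and 5 in KO HSCs. Its KO/WT ratio there was 0.193 (0.0587 to 0.499). Slamf7 had 51 and 18 counts, with a ratio of 0.436 (0.240 to 0.758). Both had 0 counts in each CD41low/CD9low library, where the exact 95% interval reaches 0.290 CPM in WT and 0.193 CPM in KO. The levels in HSCs were themselves low, 0.630 and 0.120 CPM for Slamf6 and 1 and 0.432 CPM for Slamf7. Of the plasma cell genes, Jchain, whose protein joins secreted antibodies, had 65.8 CPM in WT HSCs, 26.7 CPM in KO HSCs, 0 in WT and 0.523 CPM in KO CD41low/CD9low HSCs. Its KO/WT ratio in HSCs was 0.411 (0.384 to 0.440). The whole list of 8 B and plasma cell genes summed to 94.7 CPM in WT HSCs, 48.6 CPM in KO HSCs, 51.2 CPM in WT and 37.9 CPM in KO CD41low/CD9low HSCs. In these libraries 1, 0, 6 and 4 of its genes were at 0, and Mzb1 was at 0 in both CD41low/CD9low libraries. Other genes of the list were higher in CD41low/CD9low HSCs, among them Sdc1 with 6.36, 3.74, 20.4 and 9.10 CPM and Cd79b with 20.7, 17.2, 30.8 and 28.0 CPM in the same order of libraries. Jchain, Mzb1, Sdc1 and Cd79b were singled out after their values were seen. The 8 T and NK cell genes summed to 45.8, 58.6, 17.2 and 40.0 CPM in WT HSCs, KO HSCs, WT and KO CD41low/CD9low HSCs, with 1, 0, 5 and 5 of them at 0. The part of such cells in the Slamf6 and Slamf7 counts was not tested.

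Slamf8 and Slamf9 are the members with short cytoplasmic tails and are known from macrophages and dendritic cells. Slamf8 had 43 counts in WT HSCs, 24 in KO HSCs, 97 in WT and 72 in KO CD41low/CD9low HSCs, although the latter libraries were the smaller ones. Its level was 0.847, 0.576, 7.62 and 3.77 CPM in the same order, so that both CD41low/CD9low libraries were above both HSC libraries. In HSCs the KO/WT ratio was 0.689, with an interval of 0.4 to 1.16 that includes 1. In CD41low/CD9low HSCs it was 0.495 (0.360 to 0.678). Of the 8 macrophage genes 6 were below 0.6 in the same KO/WT comparison, as Slamf8 was and as 12% of all genes were. In that comparison C1qb and C1qc were at 1.03 and 1.13. Between the populations in KO the latter were 2.16 and 2.91 times higher in CD41low/CD9low HSCs, whereas the summed level of the list was lowest in that library. The part of macrophages in the Slamf8 level was not tested. Slamf9 had 5 counts in KO HSCs and 0 in each of the remaining libraries, and it was not evaluated further.

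Of the 8 members that passed the filter of at least 10 counts in a library of the HSC pair, 1 was above 1.5 in KO/WT (Ly9), 2 were below 0.6 (Slamf6 and Slamf7) and 5 lay between. Of all 15910 genes past the same filter, 14.1% were above 1.5 and 10.3% below 0.6, so that 1 and 2 of 8 members do not set the family apart. The median ratio of the members was 1 and that of all genes 1. In CD41low/CD9low HSCs 6 members passed the filter. Slamf1 and Cd48 were above 1.5, Cd244a and Slamf8 were below 0.6, and Ly9 and Cd84 lay between. There 13.5% of 14844 genes were above 1.5 and 12% below 0.6. The median ratio of the 6 members was 1.15 against 1.01 for all genes, with members past the cutoffs on both sides.

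**Figure D2:**
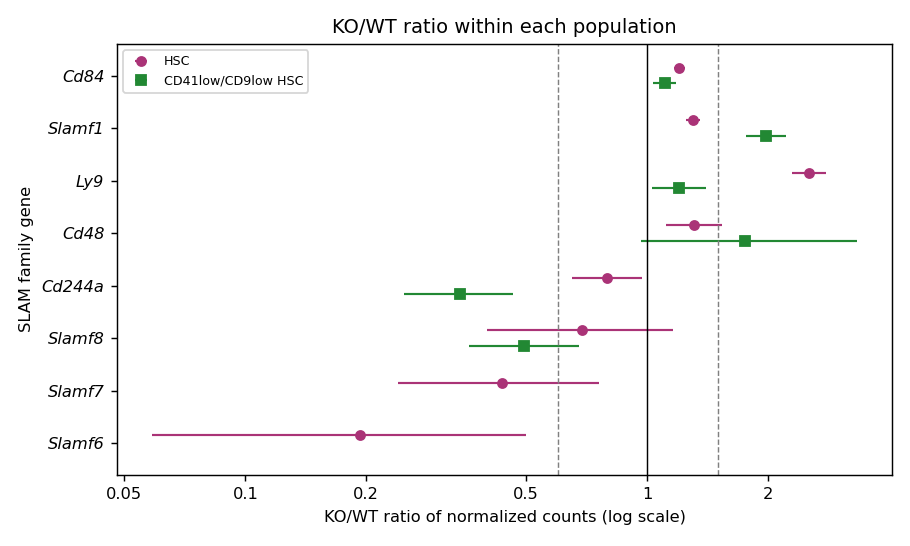
KO/WT ratio of normalized counts, on a log axis, for the members with at least 10 counts in a library of the pair. Circles are HSCs and squares CD41low/CD9low HSCs, each from 1 library per genotype, bars are exact 95% counting intervals, the solid line is a ratio of 1 and dashed lines are the cutoffs of 0.6 and 1.5. Ly9 lies at 2.52 in HSCs, while in CD41low/CD9low HSCs Slamf1 lies at 1.98, Slamf8 at 0.495 and Cd244a at 0.341.

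When genotype and population were fitted together over the 4 libraries, 1 degree of freedom remained for the spread, and the populations served as repeats of the genotype effect. The methods describe both populations as sorted from pooled marrow, and the labels do not say whether they came from the same pool. These repeats may therefore share animals, and the SE and p-values do not measure the spread between mice. Of the 7 members with at least 10 counts in at least 2 libraries, 0 passed for genotype (edgeR's quasi-likelihood test, Benjamini-Hochberg adjusted p under 0.05 over 14940 genes). Not passing does not show that a member was unchanged. Of all genes 0.535% were called higher and 0.308% lower in KO. At an unadjusted p under 0.05 there were 2 members, Slamf1 and Ly9, and in DESeq2 0 of the 6 members with an adjusted p passed while 2 had an unadjusted p under 0.05. The log2 KO/WT of Slamf1 in this fit was 0.67 ± 0.18 (SE), with an adjusted p of 0.110 in edgeR's test. That of Ly9 was 0.81 ± 0.27 (adjusted p = 0.245), and that of Cd244a was -0.93 ± 0.49 (adjusted p = 0.584, edgeR). Without a filter on low counts the adjusted p of Slamf1 became 0.00548 in edgeR, and over all alternatives it ranged from 0.00548 to 0.236. For Cd48 the log2 KO/WT was 0.57 ± 0.54 and for Cd84 it was 0.20 ± 0.15, both with adjusted p-values above 0.7 (0.852 and 0.747, edgeR).

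In the same fit 4 of the 7 members differed between CD41low/CD9low HSCs and HSCs. Slamf1 was lower in CD41low/CD9low HSCs, with a log2 ratio of -1.16 ± 0.18 (adjusted p = 0.000224 in edgeR's test), as were Cd48 with -2.08 ± 0.56 (adjusted p = 0.0132) and Cd84 with -0.76 ± 0.15 (adjusted p = 0.00149). Slamf8 was higher, with a log2 ratio of 2.88 ± 0.75 (adjusted p = 0.0116). Of all genes 8.24% were called higher and 12.6% lower in CD41low/CD9low HSCs, 1231 and 1876 genes, a split that became 1719 and 1650 when libraries were scaled by total count. The calls of these 4 members held under every normalization, filter and tool that was run. Ly9 (log2 ratio 0.16 ± 0.27, adjusted p = 0.742) and Cd244a (0.31 ± 0.49, adjusted p = 0.727) did not pass this edgeR test. The tables of HSCs list 38293 genes and those of CD41low/CD9low HSCs 41214, and population cannot be told apart from this difference in annotation or from any other difference in how the libraries were made.

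Taken by genotype, the ratio of CD41low/CD9low HSCs to HSCs was 0.352 (0.317 to 0.391) for Slamf1 in WT and 0.541 (0.507 to 0.578) in KO. For Cd48 it was 0.197 (0.111 to 0.325) in WT and 0.267 (0.189 to 0.369) in KO, the lowest ratio of a member counted in all libraries. Both genes were thus below the cutoff in both genotypes. Slamf8 was 8.47 times higher in WT (5.86 to 12.4) and 6.15 times higher in KO (3.83 to 10.2). Slamf7 was at least 4.53-fold lower in WT and at least 2.92-fold lower in KO CD41low/CD9low HSCs, and Slamf6 at least 2.84-fold lower in WT, when a count of 0 is replaced by 3 counts in that library. Ly9 and Cd244a crossed 1 between the genotypes. Their ratios were 1.59 (1.37 to 1.84) and 1.83 (1.47 to 2.28) in WT, but 0.765 (0.688 to 0.851) and 0.796 (0.587 to 1.07) in KO. In WT 3 members were above 1.5 and 4 below 0.6 of the 8 that passed the filter, where 18.6% and 20.2% of all genes did so. In KO it was 1 and 4 of 7, with 18.4% and 21.1% of all genes.

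**Figure D3:**
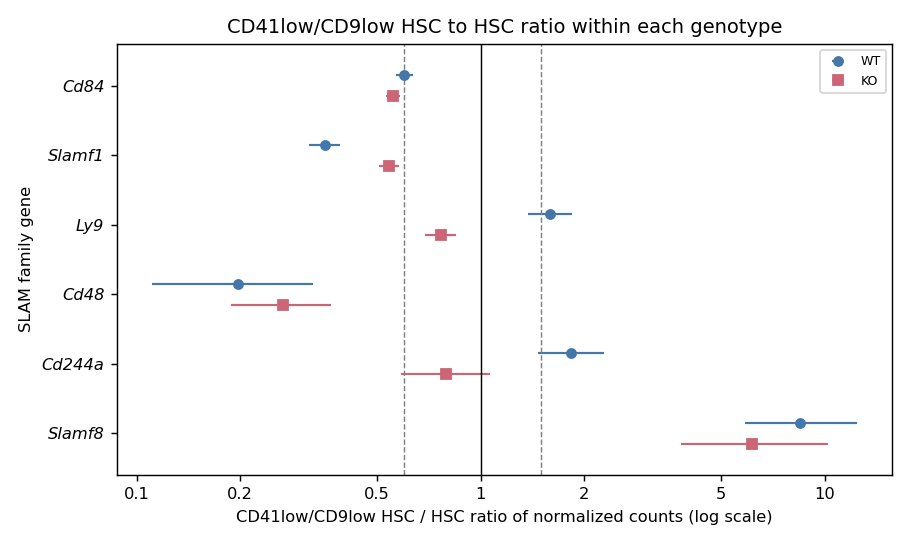
Ratio of CD41low/CD9low HSCs to HSCs in normalized counts, on a log axis, within WT (circles) and KO (squares), each from 1 library per population. Bars are exact 95% counting intervals, the solid line is a ratio of 1 and dashed lines are the cutoffs of 0.6 and 1.5. Cd48, Slamf1 and Cd84 lie below 1 and Slamf8 above it in both genotypes, whereas Ly9 and Cd244a lie above 1 in WT and below it in KO.

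The genes of the remaining gate proteins give a scale for these differences. Itga2b, which encodes CD41, was 547 CPM in WT HSCs, 691 CPM in KO HSCs, 136 CPM in WT and 205 CPM in KO CD41low/CD9low HSCs. Its ratio between the populations was 0.235 in WT and 0.279 in KO, close to those of Cd48. Cd9, the other gene of that gate, had ratios of 0.552 in WT and 0.677 in KO, nearer to 1 than those of Itga2b. For Kit the ratios were 0.981 and 1.15. Ly6a, which encodes Sca1, was higher in CD41low/CD9low HSCs, by 1.96 times in WT and 2.89 times in KO. The 8 megakaryocyte genes, of which Itga2b is 1, summed to 984 CPM in WT HSCs, 1550 CPM in KO HSCs, 229 CPM in WT and 394 CPM in KO CD41low/CD9low HSCs, which is the order of Slamf1 and of Cd48. The higher sum in KO than in WT HSCs came from the integrin genes Itga2b and Itgb3, the latter with 203, 663, 51.4 and 141 CPM. Of the other genes of the list, some were lower in KO than in WT HSCs. These were Pf4 with 144, 126, 14.4 and 13.2 CPM, Gp5 with 54.3, 32.4, 11.8 and 18.4 CPM and Gp9 with 23.6, 21, 12.5 and 13.2 CPM. The rest were higher in KO HSCs at lower levels. They were Ppbp with 5.71 CPM in WT and 7.96 CPM in KO HSCs, Gp1ba with 6.87 and 9.04 CPM and Gp6 with 0.374 and 2.30 CPM. The part of megakaryocyte-lineage cells in the levels of Slamf1 and Cd48 was not tested.

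Since genes of different lengths collect different numbers of reads, the order within the family was read per kilobase of exon, in RPKM (CPM divided by the exon length in kilobases). Cd84 came first in every library, at 27.5 RPKM in WT HSCs, 32.6 in KO HSCs, 17.5 in WT and 19.3 RPKM in KO CD41low/CD9low HSCs. Slamf1 had rank 2 in 3 libraries, at 13.4, 17.3 and 9.93 RPKM in WT HSCs, KO HSCs and KO CD41low/CD9low HSCs. In WT CD41low/CD9low HSCs it had 5.03 RPKM and rank 3 after Ly9 with 6.32 RPKM, an order that turned with the longest coding transcript as the length. Cd48 had rank 3 in WT HSCs at 5.05 RPKM and rank 4 in KO HSCs at 6.52 RPKM, where Ly9 reached 9.31 RPKM. In WT CD41low/CD9low HSCs Cd48 had rank 6 at 1.06 RPKM, below Slamf8 at 2.47 and Cd244a at 2.01 RPKM. Slamf8 and Cd48 in KO CD41low/CD9low HSCs, at 1.22 and 1.85 RPKM, exchanged their places with the other length. Cd244a had rank 5 or 6 in all libraries, between 0.686 and 2.01 RPKM.

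The adaptors through which SLAM receptors signal were hardly detected. Sh2d1a, which encodes SAP, had 5 counts in WT HSCs and 0 in the remaining libraries. Sh2d1b2, which encodes an EAT-2 protein, had 6 counts in WT CD41low/CD9low HSCs and 0 elsewhere, and Sh2d1b1 had no row that could be matched. Cd2, the other receptor of CD48, had 28 counts in WT HSCs, 6 in KO HSCs and 0 in both CD41low/CD9low libraries. The kinases and phosphatases further down were abundant. The phosphatase genes Inpp5d, Ptpn11 and Ptpn6 lay between 156 and 343 CPM in all libraries.

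Of the 22 signaling partners fixed as a list, KO/WT in HSCs was above 1.5 for 2 and below 0.6 for 2, and 18 lay between, where 14.1% and 10.3% of all genes were past these cutoffs. In CD41low/CD9low HSCs 21 passed the filter, with 0 above 1.5 and 2 below 0.6, where 13.5% and 12% of all genes did so. The median ratios were 0.924 and 0.974. Fyn, the kinase that SAP recruits to SLAM receptors, had a KO/WT ratio in HSCs of 1.64 (1.59 to 1.70). In CD41low/CD9low HSCs the ratio was 1.37 (1.26 to 1.48), and its log2 KO/WT in the 4-library fit was 0.58 ± 0.15 (adjusted p = 0.104, edgeR). Only Dok2, an adaptor that dampens kinase signaling, passed the 4-library test among the 21 partners tested. It had 58.9 CPM in WT HSCs, 24.8 CPM in KO HSCs, 54.0 CPM in WT and 30.8 CPM in KO CD41low/CD9low HSCs. It fell in KO by 1.03 ± 0.19 on the log2 scale (adjusted p = 0.0117, edgeR's quasi-likelihood test), with ratios of 0.426 (0.396 to 0.457) and 0.571 (0.510 to 0.638). Cd2 was the other partner below 0.6 in HSCs, at 0.265 (0.0895 to 0.651).

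The other genes of the cluster were examined to see whether neighbours shared the differences. Between the outermost SLAM genes lie 19 further protein-coding genes of the count tables, of which 6 had fewer than 10 counts in every library. In HSCs 2 of them were above 1.5 and 0 below 0.6 in the KO/WT ratio, and 11 lay between, where 14.1% and 10.3% of all genes were past these cutoffs. In CD41low/CD9low HSCs 1 was above, 1 below and 10 between, where 13.5% and 12% of all genes were past them. Besides the genes described below, Cfap45 was above 1.5 in HSCs, at 4.32 with 14 and 49 counts. Kcnj10 was below 0.6 in CD41low/CD9low HSCs, at 0.0444 with 15 counts and 1 count. The median ratios of the neighbours were 1.04 in HSCs and 0.920 in CD41low/CD9low HSCs. Gm10521, which lies on the same strand after Cd84, was the neighbour above 1.5 in the latter, at 1.73 (1.21 to 2.50). In HSCs it was 1.46 (1.27 to 1.67). With 7.88, 11.3, 3.46 and 5.96 CPM in WT HSCs, KO HSCs, WT and KO CD41low/CD9low HSCs it had the order of Slamf1 and Cd48. Pea15a, farther along the cluster, had a ratio of 2.08 (1.86 to 2.32) in HSCs but 0.834 (0.717 to 0.971) in CD41low/CD9low HSCs. Gm10521, Pea15a and the partner Dok2 were picked for description after their values were seen.

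**Figure D4:**
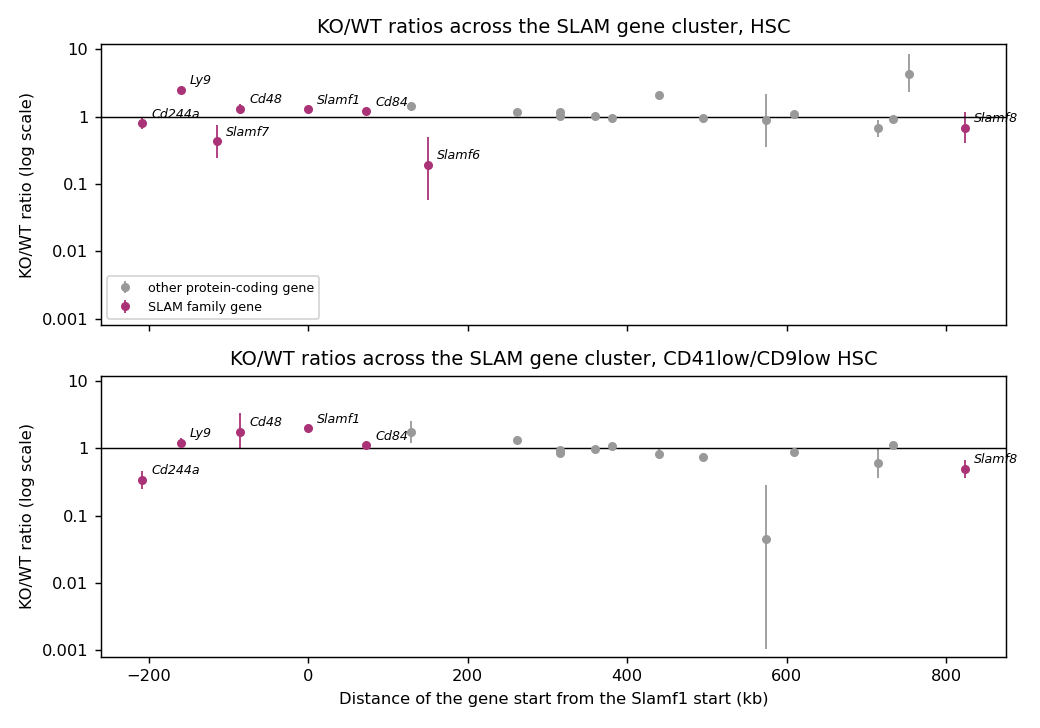
KO/WT ratio, on a log axis, against the distance in kb between the start of each gene and the start of Slamf1, in HSCs (top) and CD41low/CD9low HSCs (bottom). SLAM family genes are named and coloured and the other protein-coding genes of the cluster are grey. Bars are exact 95% counting intervals from 1 library per genotype, and genes with fewer than 10 counts in both libraries are left out. The ratios change sides of 1 between neighbouring SLAM genes, as from Ly9 at 2.52 to Slamf7 at 0.436 in HSCs.

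The genes with the most similar course over the 4 libraries were sought among the protein-coding genes with at least 100 counts in every library, by the Euclidean distance of centred log2(CPM + 0.1) values. With 4 libraries this is a description of level and not a sign of a shared role. Counting error was not carried into the distances. Cd48, with 16 and 42 counts in WT and KO CD41low/CD9low HSCs, was itself below 100 counts. So was Cd244a, with 64 counts in KO CD41low/CD9low HSCs, and the order of genes near these 2 members is uncertain. For Cd48 the nearest of 9840 genes was Itga2b at a distance of 0.155, followed by 1190002N15Rik (0.245), Myom1 (0.257), Rnf8 (0.366) and Zeb2 (0.406). For Slamf1 it was Slc22a3 (0.119), with 150, 179, 57.3 and 104 CPM in the order used above, followed by Lnpk, Zfp595, Zfp677 and Abca4 at 0.191 to 0.248. The genes nearest to Cd244a, which were Cenpm, Slc35f2, Stard13, Armc3 and Arhgef10l, had distances of 0.300 to 0.306, and all of them were highest in WT CD41low/CD9low HSCs.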

How the data were processed

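TopHat 2.0.10 was used by the authors for alignment to mm10 (GRCm38), followed by Samtools and by HTSeq on Ensembl genes, and raw read counts were deposited. The sources used here do not give the version and strand setting of HTSeq or the release of its annotation. Libraries were made with a stranded kit. For every 100 counts on genes, 60.1 to 105 reads fell on no feature and 0.443 to 0.841 were ambiguous, and these closing lines were left out.

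Symbols, coordinates and exon lengths came from GENCODE M21 (GRCm38). Of 42367 genes 37140 were listed in all tables and used across populations. Ratios used median-of-ratios size factors of each pair, as the study used DESeq, genes with at least 10 counts in a library, cutoffs of 1.5 and 0.6, and exact 95% Clopper-Pearson intervals. Ratios of ratios have exact conditional intervals. The 4 libraries were fitted with edgeR 4.0.16 (TMM, quasi-likelihood test, R 4.3.3), and SE is the log2 ratio divided by the root of the F statistic. DESeq2 1.42.0, other normalizations, filters, a pseudocount of 1 and a length correction were alternatives. The scripts were checked on simulated data with known answers. Of 200 genes changed 3-fold between the genotypes, the 4-library fit recovered 65.5%, with 5 false calls. The simulation gave all genes the same spread. Smaller changes were not simulated.

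The genes, the 15 gene lists and the tests were chosen with earlier results of these data known. All 9 members were described, and beyond the lists, neighbours and the 5 most similar genes of Slamf1, Cd48 and Cd244a no gene was named. Values of 1 listed gene are not reported here. Libraries are single per group, pooled from several mice, and intervals cover counting error only.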

Additional observations from a re-analysis of the deposited data

Results flagged for a closer look

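No SLAM family gene had KO/WT ratios on opposite sides of 1 in the populations with both counting intervals off 1. Among the signaling partners 4 genes did, and each ratio comes from 1 library per genotype, so that the difference was not tested. The share of all genes that did so was not determined, so the count of 4 does not set the partners apart. Src went from a ratio of 1.54 in HSCs to 0.775 in CD41low/CD9low HSCs, and the second was 0.502 times the first (exact interval 0.423 to 0.597). Lyn went from 1.25 to 0.883, a quotient of 0.704 (0.638 to 0.776). Ptpn11 went from 1.24 to 0.910, a quotient of 0.736 (0.692 to 0.783). Sh3bp2, whose protein binds CD244, went the other way from 0.911 to 1.18, a quotient of 1.30 (1.15 to 1.47). Groups of 1 library allow no comparison of a sample with others of its group.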

How the results depend on the processing

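Of 133 ratios of single members under other settings 129 stayed within the counting interval and 4 moved (Slamf1 to 1.24 and Cd84 to 1.14 in KO/WT of HSCs with a correction for exon length, Cd84 to 0.638 in WT and 0.593 in KO between the populations with total counts), and 0 changed sides of 1 after a call. Of 66 values of members in the 4-library fit 65 kept direction and side of the threshold, and Slamf1 passed it for genotype without a filter (log2 0.67, adjusted p = 0.00548, edgeR).

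Without a filter on low counts, 4354 genes were above 1.5 and 2649 below 0.6 in HSCs and 3121 above 1.5 in CD41low/CD9low HSCs, and Slamf9 with 5 against 0 counts made 2 members above 1.5 in HSCs. With at least 50 counts, 1431 and 792 genes passed in HSCs and 982 and 702 in CD41low/CD9low HSCs. Then 1 member (Slamf7) was below 0.6 in HSCs and 1 member (Slamf1) above 1.5 in CD41low/CD9low HSCs, since Slamf6 and Cd48 have fewer counts. In the 4-library fit the genotype calls were 80 higher and 46 lower, and became 121 and 85 with total counts, 254 and 166 without a filter, 50 and 19 with at least 50 counts, and 30 lower in DESeq2. In the population comparison no count moved by over 1.5 times. Apart from the filter the cause of these shifts was not tested. No paired analysis was possible because the labels number no replicates, and leaving out a library leaves no residual degree of freedom.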

Other observations

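The marker lists whose sums were not given above had these summed levels in WT HSCs, KO HSCs, WT CD41low/CD9low HSCs and KO CD41low/CD9low HSCs. The 7 dendritic cell genes summed to 9.10, 20.3, 11.4 and 6.69 CPM. The 7 mast cell and basophil genes summed to 58.8, 89.1, 32.1 and 3.97 CPM. The 8 genes of the proteins in the lineage antibody mix summed to 30.4, 17.9, 48.7 and 32.0 CPM, and the 7 multipotent progenitor genes to 365, 288, 674 and 490 CPM. KO CD41low/CD9low HSCs had the lowest sum of the dendritic cell and of the mast cell and basophil genes. Their part in the levels of the SLAM genes was not tested.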
